A study of Mus musculus with 2 samples.

Results

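The BTG/TOB family of antiproliferative proteins and the deadenylases that they bind were represented by 8 genes, Btg1, Btg2, Btg3, Tob1, Tob2, Cnot6, Cnot7 and Cnot8. Their probes were all those whose RefSeq accession mapped to one of these genes, which gave 14 of the 41174 non-control probes on the array. All 8 genes and all 14 probes were detected, among 10447 detected genes. The samples were a pool of RNA from 6 miR-32 transgenic mice and a pool from 6 wild-type mice, all FVB/N at 6 months of age, and the tissue was dorsolateral prostate. The transgene is labelled ARR2PB-miR32. ARR2PB is a composite probasin promoter, active in prostate epithelium and responsive to androgen, whereas the RNA came from the whole tissue. Both pools were hybridised together on 2 arrays with the dyes exchanged, with the transgenic pool in Cy3 on array 1 and in Cy5 on array 2. The arrays therefore repeat 1 pair of pools, genotype could not be tested. Values written with ± are a mean and its SD over these arrays.

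BTG and TOB proteins share an amino-terminal domain that binds the CAF1-type nucleases encoded by Cnot7 and Cnot8, subunits of the CCR4-NOT complex. This complex shortens the poly(A) tails of mRNAs, and Cnot6 encodes one of its CCR4-type nucleases. Many microRNAs act by bringing the same complex to their targets through GW182 proteins, and Btg2 has been reported as a target of miR-32 in prostate cancer. The family can thus be both a target of the microRNA and a partner of the machinery that carries out its repression. The comparison asks how these mRNAs differed between prostates with and without the transgene.

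The mature microRNA is shown because its seed, bases 2 to 8 and written in capitals, is the part that pairs with target mRNAs. In RefSeq (build GRCm38.p6) at least 6 of 1679 mature mouse microRNAs carried the same seed. Any on a chromosome not reported here were left out of the 6. The labels do not say which species' miR-32 the transgene carries. The endogenous mouse microRNAs read, from 5′ to 3′:
mmu-miR-32-5p: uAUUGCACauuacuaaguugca
mmu-miR-25-3p: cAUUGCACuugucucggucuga
mmu-miR-92a-3p: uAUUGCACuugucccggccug
mmu-miR-92b-3p: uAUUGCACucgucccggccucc
mmu-miR-363-3p: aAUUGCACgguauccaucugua
mmu-miR-367-3p: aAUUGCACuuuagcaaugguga
The miR-32 arm lies at chr4:56895272-56895293 on the minus strand. Beyond the seed, miR-25 shared 6 of 14 aligned positions with miR-32, and miR-92b shared 3 of 14. A perfect match to the seed in an mRNA reads GUGCAAU. Target sites in the 8 mRNAs were not analysed here.

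None of the 8 genes reached a 1.5-fold difference in the same direction on both arrays, the rule used here to call a gene higher or lower. The same rule called 2.21% of all detected genes, 0.909% higher and 1.3% lower in the transgenic pool. In this bulk tissue, fewer cells of a type and less RNA per cell cannot be told apart. The mean log2 ratios of transgenic over wild type lay between −0.36 (Cnot6) and 0.37 (Cnot7). All 8 therefore fell between the 5th and 95th percentiles of all detected genes, −0.54 and 0.43. The members had a median of −0.22 against −0.06 for all detected genes, and 5 of 8 means were below 0, against 59.4% of all means. Taken 1 array at a time, the member medians were −0.019 on array 1 and −0.0022 on array 2. Those of all detected genes were −0.027 and −0.084, so the members were not the lower on either array. The sign was the same on both arrays for 6 of 8 members and for 45.5% of detected genes. Over detected genes the ratios of the 2 arrays did not correlate positively (Pearson r −0.027, Spearman rho −0.12). The members are 1 spot each on an array. Among 99 probes of the same intensity range that were printed 10 times, the median SD between spots was 0.21 on array 1 and 0.31 on array 2, in log2 ratio.

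**Figure D1:**
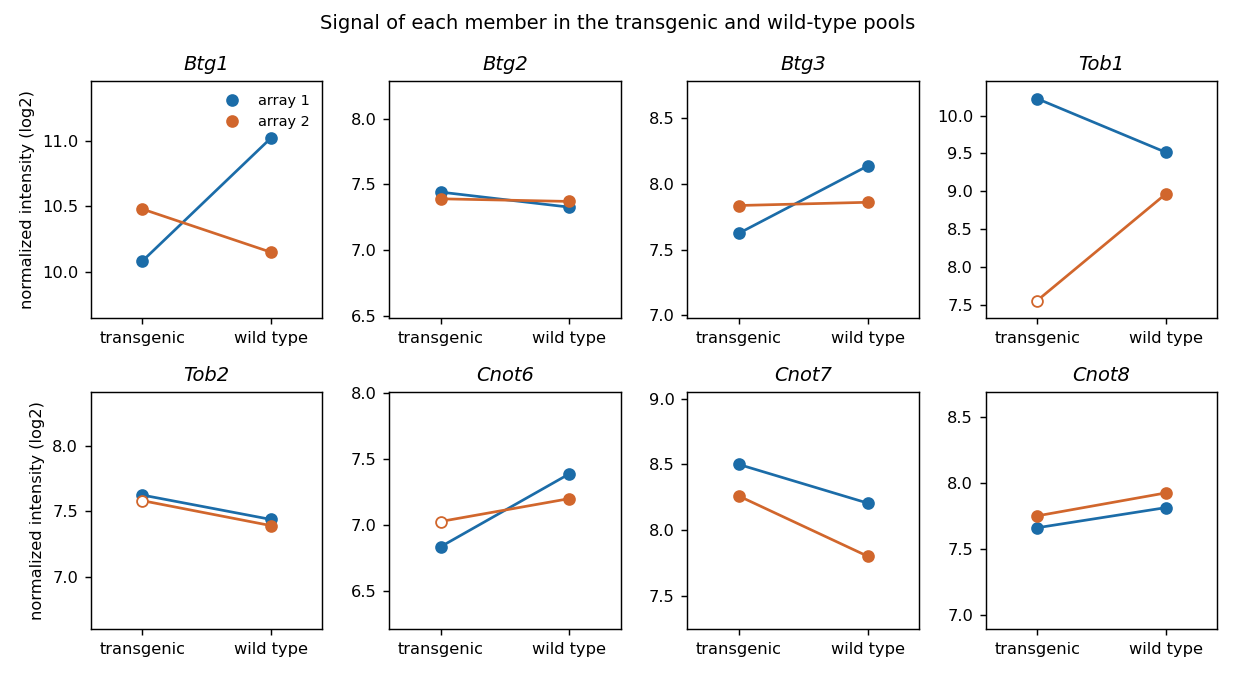
Normalized log2 intensity of the probe used for each member in the transgenic and wild-type pools, with a line joining the pools on each array. An open circle marks a transgenic signal not well above background on array 2 (Tob1, Tob2 and Cnot6). The lines of Btg1 and Tob1 slope in opposite directions on the 2 arrays, while those of Cnot7 and of Cnot8 slope the same way.

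Cy5 of array 2, which carried the transgenic pool, was the weakest channel, where 21.1% of spots passed as well above background against 42.1% to 58.3% in the other channels. Transgenic signals passed on both arrays for 6 of the 14 member probes and on array 1 only for the remaining 8. Wild-type signals passed on each array for all 14. At gene level, 5 of 8 members (62.5%) were above background in both pools on both arrays, against 58.1% of detected genes. Ratios on array 2 of these 8 probes, with the transgenic signal above background on array 1 only, rest on transgenic signals of −9 to 39 intensity units above local background, where the median of all spots was 10.

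Btg2 had ratios near 0 on its brightest probe, which was dim in the transgenic pool on array 2. This gene is induced by p53 and by growth factors and restrains entry into the cell cycle. Its normalized log2 intensity was 7.44 and 7.39 in the transgenic pool on arrays 1 and 2, against 7.33 and 7.37 in the wild-type pool. The transgenic values lay just above the wild-type values, with gaps smaller than the spread between repeated spots. The log2 ratios were 0.11 and 0.020, with a mean of 0.067 ± 0.067. Another Btg2 probe had ratios of 0.10 and 0.11, and the last had −0.25 and −0.12. With the values used here, the 3 probes thus differed in sign, and none came near 1.5-fold. The net signal of the brightest probe was 124.5 and 29.5 intensity units in the transgenic pool on arrays 1 and 2. In the wild-type pool it was 136.5 and 152. At such dim signals the offset of the background correction pulls ratios towards 0, so a difference in Btg2 is not excluded.

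The 2 dimmer Btg2 probes gave other values with the log ratios that Feature Extraction, the scanner software, computed itself. They were −0.60 and −0.82 for one probe on arrays 1 and 2, and −0.74 and −2.08 for the other, past 1.5-fold lower on both arrays. The brightest probe was at 0.19 and −0.23 with the same log ratios. For both dimmer probes the transgenic signal passed as well above background on array 1 only. Among all 8561 detected probes in that state, Feature Extraction ratios put 10.7% past 1.5-fold lower on both arrays, against 2.02% of the 8550 probes whose transgenic signal passed on both. With the values used here the share was 1.09%.

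Btg1, a paralogue of Btg2 that is abundant in quiescent cells and lymphocytes, changed sign with the dye on its brightest probe. It stayed short of 1.5-fold on array 2. The log2 intensity was 10.08 and 10.48 in the transgenic pool on arrays 1 and 2, against 11.02 and 10.15 in the wild-type pool. Cy5 was the brighter dye each time, so that the order of the pools turned between the arrays. The log2 ratios were −0.94 and 0.33 (mean −0.30 ± 0.89). A second Btg1 probe had ratios of −0.51 and −0.55 (mean −0.53 ± 0.027), just short of the log2 threshold of 0.58 on each array. Its transgenic signal was 93 and 7 intensity units above local background, against 191 and 155 in the wild-type pool, and was not well above background on array 2. With Feature Extraction ratios this probe was at −1.05 and −1.33, past 1.5-fold lower on both arrays. The 2 Btg1 probes therefore gave different pictures, with only the dimmer one lower in the transgenic pool on both arrays.

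Btg3, also known as ANA, had 1 probe. Its log2 intensity was 7.62 and 7.83 in the transgenic pool, against 8.13 and 7.86 in the wild-type pool. The transgenic value was the lower on each array, although by very little on array 2. The ratios were −0.51 and −0.024 (mean −0.27 ± 0.34). In the authors' deposited table the same probe was at −0.45 and −0.44.

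Tob1 was the member with the widest gap between the arrays. It encodes a larger family protein that also binds poly(A)-binding protein and restrains SMAD signalling. Its net signal was 1347 and 16.5 intensity units in the transgenic pool on arrays 1 and 2, against 1025 and 654.5 in the wild-type pool. The transgenic value on array 2 was not well above background, whereas that on array 1 was the highest of the 4. The log2 ratios were 0.71 and −1.41 (mean −0.35 ± 1.5), past 1.5-fold on each array but in opposite directions. Cy3 was thus the brighter dye by more than 1.5-fold on both arrays, as for 2.7% of detected genes. The SD over the arrays was exceeded by 1.27% of detected genes. No direction can be given for Tob1 from these arrays, and a second probe was not among the RefSeq-matched ones.

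**Figure D2:**
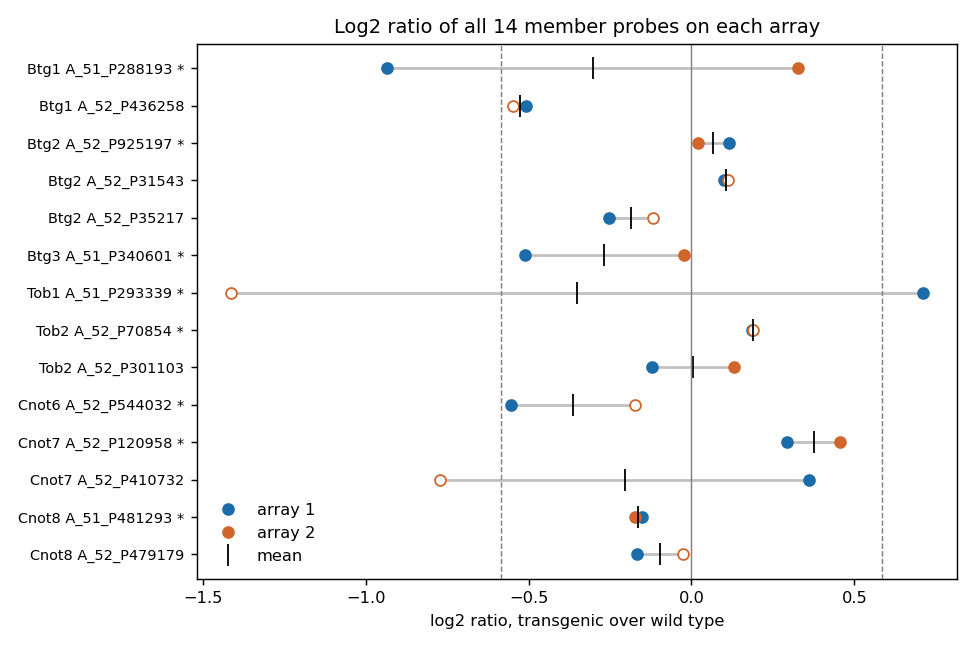
Log2 ratio of transgenic over wild type for all 14 member probes on array 1 (blue) and array 2 (orange), with the mean as a bar and dashed lines at 1.5-fold. Open circles are ratios whose transgenic signal was not well above background, and an asterisk marks the probe used for the gene. Tob1 is past the lines on both arrays, in opposite directions.

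Tob2, the closest paralogue of Tob1, had ratios on its brightest probe that hardly moved between the arrays with the values used here. Its log2 intensity was 7.62 and 7.58 in the transgenic pool, against 7.44 and 7.39 in the wild-type pool. The transgenic value was the higher on each array, and the ratios were 0.19 and 0.19 (mean 0.19 ± 0.0031). The transgenic signal of this probe was not well above background on array 2. Feature Extraction ratios of the same probe were 0.44 and −0.023. The other Tob2 probe, above background in both pools on both arrays, had ratios of −0.12 and 0.13 (mean 0.0039 ± 0.18). Feature Extraction ratios of this other probe were 0.25 and 0.24, and those in the authors' deposited table were 0.25 and 0.22. With the values used here, the 2 probes together gave no consistent direction.

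Cnot7, which encodes the CAF1 nuclease bound by BTG and TOB proteins, had the highest mean ratio of the members. Its log2 intensity was 8.50 and 8.26 in the transgenic pool, against 8.21 and 7.80 in the wild-type pool. The transgenic value was the higher on each array. The ratios were 0.29 and 0.46 (mean 0.37 ± 0.12), a 1.3-fold difference, and 93.5% of detected genes had a lower mean. Feature Extraction ratios of this probe were 0.37 and 0.43, and those in the authors' deposited table were 0.37 and 0.41. A second, dimmer Cnot7 probe had 0.36 on array 1 and −0.77 on array 2, where its transgenic signal was 9 intensity units under local background. With median centring in place of loess the mean of the brightest probe was −0.22, while the median of all detected genes was −0.57.

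Cnot8 encodes the alternative CAF1 nuclease, which occupies the same place in the complex as the Cnot7 product. Its log2 intensity was 7.66 and 7.75 in the transgenic pool, against 7.81 and 7.93 in the wild-type pool. The transgenic value was the lower on each array, and the ratios were −0.15 and −0.17 (mean −0.16 ± 0.015). The second probe had −0.17 and −0.025. With the values used here, both probes were below 0 on both arrays, by amounts smaller than the spread between repeated spots. The transgenic signal of the second probe was not well above background on array 2. Its Feature Extraction ratios were −0.81 and 0.58, opposite in sign.

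The ratio of Cnot7 exceeded that of Cnot8 by 0.45 on array 1 and by 0.63 on array 2, a pair noted after the values were seen. A difference of this kind within an array does not depend on where the array is centred, and it was 0.44 and 0.54 with median centring and 0.65 and 0.66 with Feature Extraction ratios. It did not hold for the dimmer probes of the 2 genes, with differences of 0.53 on array 1 and −0.75 on array 2. Averaging each gene's probes gave differences of 0.49 and −0.058.

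Cnot6, the CCR4-type nuclease, had the lowest mean ratio of the members. Its log2 intensity was 6.83 and 7.03 in the transgenic pool, against 7.39 and 7.20 in the wild-type pool. The transgenic value was the lower on each array. The ratios were −0.55 and −0.17 (mean −0.36 ± 0.27), and 12.5% of detected genes had a lower mean. The transgenic signal of this single probe was not well above background on array 2. Feature Extraction ratios were −1.0 and −0.30, so that array 1 alone passed 1.5-fold there.

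**Figure D3:**
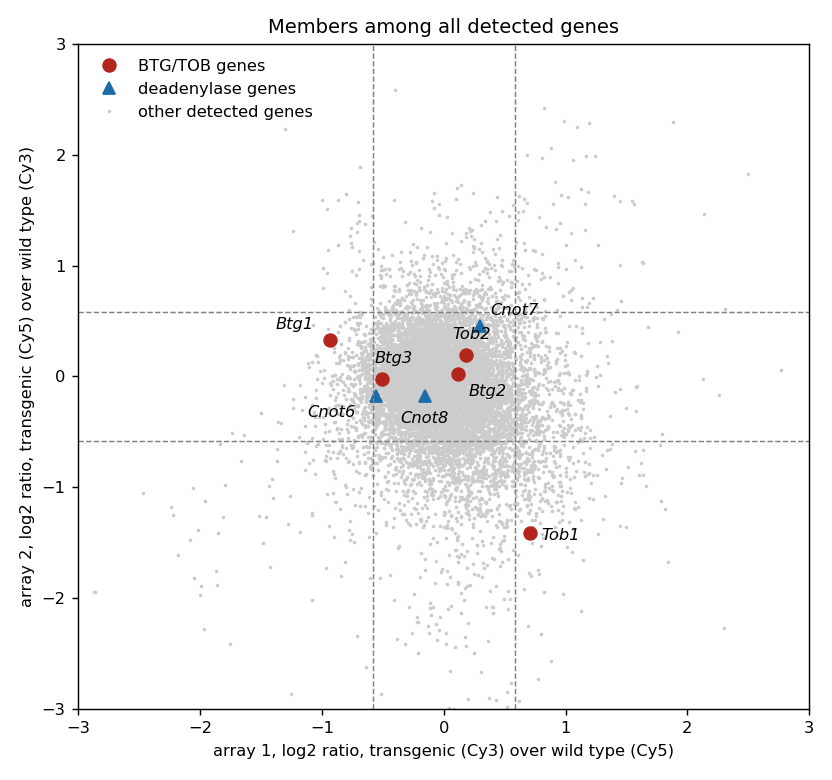
Log2 ratio on array 2 against array 1 for all detected genes (grey), the BTG/TOB genes (red circles) and the deadenylase genes (blue triangles), with dashed lines at 1.5-fold. The 21 genes beyond a log2 ratio of 3 on either array are not drawn. No member lies in the upper right or lower left corner, where called genes lie, and Tob1 lies in the lower right one.

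On single arrays, Btg1 and Tob1 passed 1.5-fold on array 1, and Tob1 did on array 2. Of all detected genes, 13.4% did so on array 1 and 20.2% on array 2. Tob1 was the member that passed on both with opposite signs, a state shared by 3.04% of detected genes. The difference between the dyes was larger than that between the pools for 2 of 8 members, Btg1 and Tob1, and for 54.5% of all detected genes.

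Genes related to the members gave few calls as well. Of 61 detected genes in 6 lists, which run from deadenylation, decapping and mRNA recruitment to BTG/TOB partners and p53 targets, 1 was higher, 0 were lower and 60 were neither, so that 1.64% were called against 2.21% of all detected genes. The higher gene was Pabpc4, which encodes a cytoplasmic poly(A)-binding protein, at 0.67 and 0.59 (mean 0.63 ± 0.057). Its second probe was at 0.42 and 0.42. This call was lost with Feature Extraction ratios (0.32 on array 2), in the authors' deposited table (0.30 on array 2), without background subtraction (0.48 on array 2), with scaling between arrays (0.55 on array 2) and with the mean over probes. With median centring its mean was −0.22.

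Among 7 detected of 8 other CCR4-NOT subunits none was called, with a median of −0.16. The scaffold subunit Cnot1, which holds the nucleases, was at 0.11 ± 0.080. The regulatory subunit Cnot3 was at 0.57 ± 0.20, with other probes at 0.49 and −0.46. Cnot2, its partner in the complex, was at −0.32 ± 0.88, and Cnot6l, the paralogue of Cnot6, at −0.26 ± 0.39. The spread over the arrays was larger than the mean for both. Other probes were at −0.0075 and 0.0012 for Cnot2 and at 0.14 for Cnot6l.

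Among 11 other deadenylases and poly(A)-binding proteins, 10 were neither besides Pabpc4, and the median was 0.020. Pabpn1, the nuclear poly(A)-binding protein, had −0.12 and −2.09 on its brightest probe, and −0.12 and −0.35 as the means of its other probes. The mitochondrial deadenylase gene Pde12 was at 0.51 ± 0.21, and at −0.11 on its other probe. None of 11 detected decapping and 5′ decay genes was called, with a median of 0.024. In that list the helicase gene Ddx6 was at 0.39 ± 0.71 and Lsm1, of the decapping activator ring, at −0.26 ± 0.36.

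None of 13 detected genes for proteins that recruit CCR4-NOT to mRNA was called, and their median was 0.074. The highest mean of the list was that of Pum2, an RNA-binding repressor, at 0.38 ± 0.14, with other probes at −0.15 and 0.030. Cpeb2, which binds cytoplasmic polyadenylation elements, was at 0.34 ± 0.46. The GW182 genes Tnrc6a and Tnrc6b were at −0.16 ± 0.84 and 0.13 ± 0.30, and Tnrc6c was not detected. Other probes were at 0.47 and −0.16 for Tnrc6a and at 0.46 and −0.014 for Tnrc6b.

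None of 7 detected partners and effectors of BTG/TOB proteins was called either, with a median of −0.011. Smad4, the shared mediator of TGF-beta and BMP signals, was at −0.40 ± 0.40. Prmt1, the arginine methyltransferase that binds Btg1 and Btg2 proteins, was at −0.35 ± 0.28, and Smad5 at −0.29 ± 0.35. Other probes were at −0.45 for Smad4 and at −0.0079 for Smad5. Ccnd1, which encodes cyclin D1, was not detected.

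All 12 genes of p53 and its transcriptional targets, to which Btg2 also belongs, were detected and none was called. Their median was −0.061. Cdkn1a, the cyclin-dependent kinase inhibitor p21, was at −0.20 ± 0.019 and Trp53 itself at −0.023 ± 0.27, or 0.20 on its other probe. Phlda3, a p53-induced inhibitor of AKT, had −0.53 and −1.82, short of 1.5-fold on array 1. Ccng1, cyclin G1, was at −0.29 ± 0.47, and at 0.37 on its other probe.

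**Figure D4:**
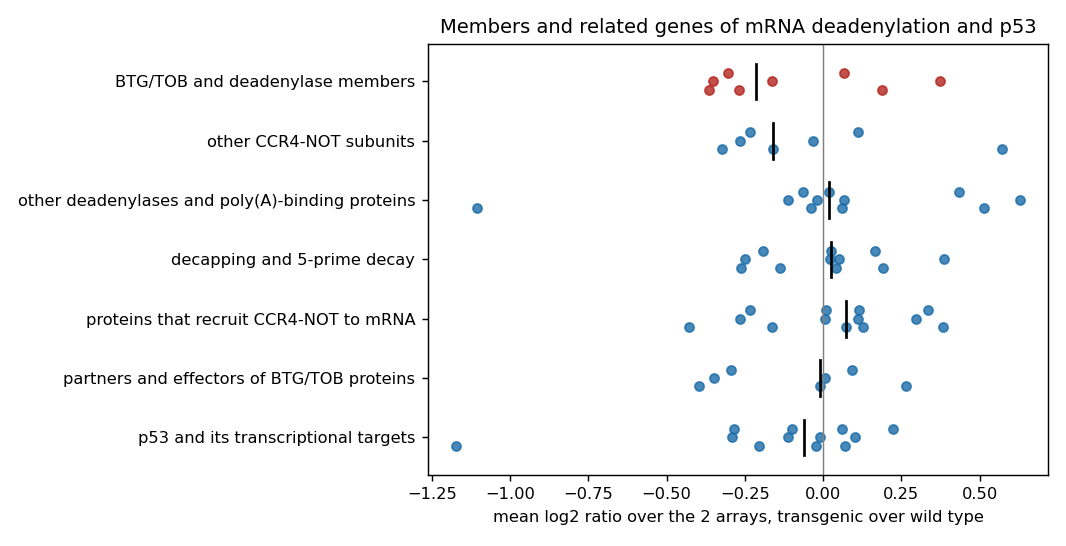
Mean log2 ratio over the 2 arrays, transgenic over wild type, for the 8 members (red) and the detected genes of 6 related lists (blue), 1 point a gene with the list median as a bar. List medians lie between −0.22 and 0.074, and Pabpn1 and Phlda3 are the points below −1.

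Markers of the labelled tissue were present. All 7 secretory epithelial markers passed as well above background in both pools on each array. Of these, 3 were called lower in the transgenic pool, Spink1 at a mean log2 ratio of −6.29 ± 0.23, Sbp at −3.18 ± 0.42 and Msmb at −0.86 ± 0.37 (SD of the 2 arrays), and 4, among them Pbsn, Krt8 and Krt18, were neither. Of 4 seminal vesicle genes, Ceacam10 was detected and called lower (−1.36 ± 0.14), with a transgenic signal well above background on 1 array only. Svs2, Svs4 and Svs5 were not detected. None of 3 basal epithelial, 3 smooth muscle, 3 fibroblast and 2 endothelial markers was called. Adipocyte, myeloid and lymphocyte lists held called genes. Transgenic signals passed as well above background on both arrays for 1 of 5 adipocyte, 2 of 6 myeloid and 0 of 3 lymphocyte markers detected. Among the called genes, Adipoq, Cfd, Car3, Lyz1 and Jchain passed on 1 array only in the transgenic pool, so the size of their ratios is uncertain. The level of a list is the log2 of its summed normalized intensities, in which the brightest markers weigh most. For 5 adipocyte markers this level was 10.97 and 10.3 in the transgenic pool, against 12.7 and 12.9 in the wild-type pool. Of these 5, 4 were called lower. For 6 detected of 7 myeloid markers it was 10.3 and 10.4 in the transgenic pool, against 11.5 and 12.1 in the wild-type pool, with 3 called lower. For 3 detected of 6 lymphocyte markers it was 8.48 and 8.70 in the transgenic pool, against 9.95 and 9.89 in the wild-type pool. Of these 3, Jchain was called lower (−1.94 ± 0.16), while Ptprc (−0.45 ± 0.15) and Cd3e (0.12 ± 0.26) were neither. Cd3g and Cd79a were among those not detected. The part of these cell types in the values of Btg1 and the other members was not tested. The transgene could not be checked on these arrays, since mature miR-32 was not analysed here.

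Over the 10 processings of both arrays at the 1.5-fold rule, 5 members kept the sign of their mean and 2 turned only under median centring. These processings are not independent, since some of them reuse the same values. The means of Btg1, Btg3, Tob1, Cnot6 and Cnot8 were below 0 in every processing that measured them, although the arrays disagreed for Tob1 in each and for Btg1 in most. Cnot7 and Tob2 were above 0 except under median centring, and Btg2 ranged from −0.33 to 0.14 with both signs. Under median centring, which moved the median of all detected genes to −0.57, Btg1 was called lower at −0.99 and −1.42.

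**Figure D5:**
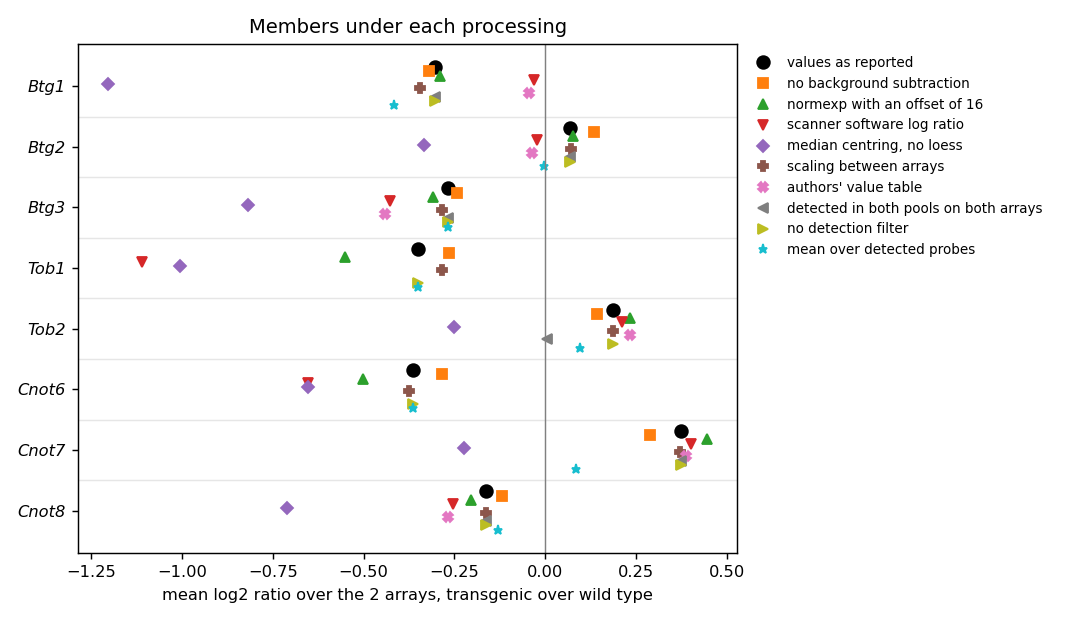
Mean log2 ratio over the 2 arrays, transgenic over wild type, for each member under each processing, with 1 symbol a processing and the values as reported in black. Median centring gives the lowest value for 7 of 8 members, and Tob1 is lowest with Feature Extraction ratios.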

How the data were processed

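Total RNA was extracted with Trizol and labelled with an Agilent low-input kit, per the labels' protocols. Per the file headers, Feature Extraction 11.0.1.1 gave the deposited intensity columns: median spot and local background intensities, not normalized, and processed signals, background-subtracted and dye-normalized. The deposited ratio of the same software is log10, with Cy5 on top. The authors' value table holds log2 ratios of transgenic over wild type for 8533 rows. This direction was found by setting it against the software's ratios: the slope was 1 on each array, and columns had a median of 0. The filter behind it is not known here.

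Spot medians were used because no column of means was present, though means were planned. Background was corrected by normexp (offset 50) and each array normalized by loess in limma 3.58.1 under R 4.3.3, with control and outlier spots (157 and 177) at weight 0. No spot was saturated. Ratios of array 2 were turned by the dyes in the labels. Levels by pool are after loess and Aquantile normalization. The offset pulls ratios of dim probes towards 0. Probes were named through RefSeq accessions (GRCm38.p6), which named 27816 of 41174 probes; no gene coordinates are given because the headers cite another build. A probe was detected if at least 1 of its spots was well above background in the same pool on both arrays, and a gene took its detected probe of highest mean intensity. Precision is limited by having 2 arrays, by the weak Cy5 of array 2 and by the lack of a positive correlation between the arrays. The size rule, 1.5-fold or more with the same sign on both arrays, was run on simulated data. The simulated arrays lacked the weak Cy5 of array 2, so that run does not show how the rule performs on these arrays. With 1 pair of pools, no p-value was computed. Named genes were all 8 members and, in each related list, called genes or those with the largest means; Cnot1, the GW182 genes, Cdkn1a and Trp53 were named in addition for their roles. A few genes of the lists are not reported here. Members and lists were chosen with earlier results of these data known. Alternatives were other background corrections, normalizations, detection filters, probe summaries, folds and single arrays. Figures were drawn with matplotlib 3.10.9.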

Additional observations from a re-analysis of the deposited data

How the results depend on the processing

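No paired analysis was possible because both arrays hold the same pair of pools. The members called, 0 higher and 0 lower, stayed at 0 with every alternative that uses both arrays except median centring, where 1 (Btg1) was lower. On single arrays 0 to 1 members were higher and 1 was lower. Of all detected genes, 95 were higher and 136 lower. These counts were 149 and 241 with an offset of 16, 247 and 629 with Feature Extraction ratios, 2 and 554 with median centring, and 25 and 37 at 2-fold. There were 178 higher and 119 lower genes in the authors' deposited table, and 94 were higher and 76 lower among genes above background in both pools. On single arrays 544 to 845 were higher and 558 to 1569 lower. The sign of Pabpc4 turned with median centring (−0.22). The cause was not tested. The median of the members was −0.68 with median centring, −0.14 with Feature Extraction ratios, −0.041 in the deposited table and −0.080 among the 6 members with a probe above background in both pools on both arrays, where Tob2 is measured by its other probe. Tob1 and Cnot6 have no value in the deposited table. The limiting signal was Cy5 of array 2, with a median of 10 intensity units above background.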

Other observations

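Of the 28 pairs of members, 6 had a difference in log2 ratio of the same sign on both arrays in each processing of both arrays that measured the pair. Btg2 minus Btg3 ran from 0.029 to 0.72, Tob2 minus Cnot8 from 0.031 to 0.72 and Tob2 minus Cnot6 from 0.080 to 1.44. Btg3 minus Tob2 ran from −0.89 to −0.096 and Cnot6 minus Cnot7 from −1.37 to −0.016. Btg2 minus Cnot8 ran from 2e-06 to 0.48. Each value compares the ratios of single probes, or probe means, of different genes in 1 pair of pools, and the pairs were noted after the values were seen. The processings are not independent, since some reuse the same values, so a sign kept over all of them is no repeated observation. The same count was not made for pairs of other genes. Transgenic signals of Cnot6 and of the brightest Tob2 probe were not well above background on array 2.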
